A study of Mus musculus with 3 samples.

Results

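The heat shock proteins and co-chaperones of the JB6 P+ mouse epidermal line were examined in 3 RNA sequencing libraries, 1 per treatment. The genes were chosen by symbol: the HSP70 and HSP110 genes (Hspa, Hsph1), the HSP90 alpha-class genes (Hsp90aa1, Hsp90ab1), the small heat shock protein genes (Hspb, Cryab), the chaperonins (Hspd1, Hspe1, Cct), the J-domain genes (Dnaja, Dnajb, Dnajc), the BAG genes and the heat shock factors. Hspa5, Dnajb9 and Dnajc3, which serve the endoplasmic reticulum, were left out. The choice gave 90 of the 24421 genes of the table, or 89 once the near-identical Hspa1a and Hspa1b were summed. Of these, 74 had a level of 1 CPM or more in 1 or more libraries and are called measured, CPM being the reads of a gene per 1000000 reads of its library's scaled total.

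Chaperones of the HSP70 class bind unfolded stretches of protein in cycles of ATP hydrolysis, with J-domain proteins delivering clients and HSP110 and BAG proteins exchanging the nucleotide. HSP90 acts later, on nearly folded clients such as kinases and steroid receptors, and small heat shock proteins hold unfolding proteins in a soluble form. Heat shock factor 1 (HSF1) is kept inactive by chaperones and, when unfolded proteins engage them, trimerises and binds heat shock elements, repeats of the unit GAA in alternating orientation.

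The first group was given 50 nM CDDO, a synthetic oleanane triterpenoid, and TPA, a phorbol ester that activates protein kinase C, at 10 ng/mL. The second was given TPA alone at that dose. Dosing in both groups took place every second day for 5 days, the medium holding 1% serum. The third group was labelled control, and its serum, time in culture and vehicle are not given in the sources used here, so treatment and those conditions cannot be told apart. All groups were JB6 P+ cells, grown before treatment in 10% serum and labelled as epithelial cells of the skin. The CDDO+TPA, TPA and control libraries held 7872089, 7813035 and 8190078 reads assigned to genes. The column of the first group is headed CDDO without TPA and was taken as CDDO+TPA, the sample whose labels name CDDO; if it held another treatment, each CDDO+TPA value below would describe that treatment. With 1 library per group no difference was tested against the spread between cultures, and the 95% intervals cover counting error only. Of 14 keratinocyte markers 5 were measured, Krt5, Krt1, Krt15 and Epcam being at 0 reads in every library. The summed level of the 14 was 271 CPM in the CDDO+TPA library, 234 CPM in the TPA library and 178 CPM in the control. That sum was mostly Itga6, with 158, 91.4 and 86.2 CPM in those libraries, and Jup, with 101, 122 and 73.5 CPM. Krt10 was highest in the control, with 6.59, 9.16 and 13 CPM, and Sfn and Dsp in the TPA library. Krt14, Trp63 and Cdh1 had at most 4 reads in a library. Of 10 mesenchymal markers 9 were measured, with summed levels of 2620, 2132 and 3246 CPM in that order of libraries, and of 11 leukocyte and endothelial markers 2 were measured, with summed levels of 10.3, 5.02 and 7.11 CPM. Fn1 was the largest part of the mesenchymal sum, with 1391, 1087 and 1519 CPM in that order of libraries. Single markers ran in different directions. Pdgfra had 76.9, 34.9 and 5.24 CPM in the CDDO+TPA, TPA and control libraries, Col1a1 267, 152 and 529 CPM, Col3a1 7.22, 10.8 and 50.2 CPM, and Pdgfrb 26.1, 81.5 and 86.6 CPM. In TPA against control 1 of the 9, Pdgfra, was higher at least 2-fold and 3, Col1a1, Col1a2 and Col3a1, were lower. The part of these marker levels in the chaperone results was not tested, and a change in the make-up of a culture and a change of RNA per cell cannot be told apart in bulk RNA.

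The upstream sequences are shown because Hspa1a, Hspa1b and Hspb1 were among the genes with the largest folds in the TPA library and Dnajb1 was higher there by a smaller fold. They are the upstream parts of the RefSeq promoter windows of GRCm38.p6, 250 bases each and 200 bases for Dnajb1, on the strand of the gene and ending at the base before the annotated start. Capitals mark GAANNTTC or TTCNNGAA, a pair of facing GAA units.
Hspa1b (chr17:34959239-34959488, minus strand): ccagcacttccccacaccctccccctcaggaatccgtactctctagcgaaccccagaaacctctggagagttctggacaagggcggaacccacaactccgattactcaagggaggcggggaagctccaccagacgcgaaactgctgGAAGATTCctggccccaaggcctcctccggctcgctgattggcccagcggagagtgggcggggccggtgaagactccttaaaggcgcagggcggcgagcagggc
Hspa1a (chr17:34972157-34972406, minus strand): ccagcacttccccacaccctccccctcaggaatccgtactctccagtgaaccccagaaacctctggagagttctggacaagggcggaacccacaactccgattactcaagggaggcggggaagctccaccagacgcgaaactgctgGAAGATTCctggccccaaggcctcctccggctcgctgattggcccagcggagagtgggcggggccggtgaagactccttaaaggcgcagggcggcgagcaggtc
Hspb1 (chr5:135887669-135887918, plus strand): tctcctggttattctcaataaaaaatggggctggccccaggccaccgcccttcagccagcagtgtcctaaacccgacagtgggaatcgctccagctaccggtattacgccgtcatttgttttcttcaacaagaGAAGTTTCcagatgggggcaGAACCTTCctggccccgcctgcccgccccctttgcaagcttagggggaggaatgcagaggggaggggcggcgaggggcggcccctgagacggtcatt
Dnajb1 (chr8:83607975-83608174, plus strand): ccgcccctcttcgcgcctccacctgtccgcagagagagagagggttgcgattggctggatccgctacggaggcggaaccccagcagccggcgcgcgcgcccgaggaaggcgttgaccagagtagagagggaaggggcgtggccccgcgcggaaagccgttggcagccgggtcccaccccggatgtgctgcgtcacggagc
The windows of Hspa1a and Hspa1b were equal at 247 of 250 positions, and both held 1 pair at positions -104 to -97 from the start. Hspb1 held 2 pairs, both upstream, between -117 and -90. No pair lay in the stretch shown for Dnajb1.

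The longer form, 3 units in a row (GAANNTTC followed by NNGAA, or TTCNNGAA followed by NNTTC), was found for Hspd1, Hspe1, Hsph1 and Dnajb6. Members without a promoter window, some of which are named below, were not searched. The sites are shown with flanks, 30 bases each, the capitals marking the run of units.
Hspd1, shared with Hspe1 (chr1:55088053-55088082, minus strand): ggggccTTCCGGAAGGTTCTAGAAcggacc
Hsph1 (chr5:149636279-149636308, minus strand): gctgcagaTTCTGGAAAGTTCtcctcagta
Dnajb6 (chr5:29735844-29735873, plus strand): agctccgaGAATCTTCCGGAAcgctagacc
Hspd1 and Hspe1, which encode the 2 parts of the mitochondrial chaperonin, face away from each other with 216 bases between their starts, so that their matches are the same site. The Hsph1 site lies past the start, at positions 16 to 28. The windows searched run from 250 bases before to 50 after each start, and each motif reads as itself or as its partner on the other strand, so that both strands were covered. Any 3-unit match also holds the 2-unit match.

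Promoter windows were found for 71 of the 90 gene symbols. Those without a window, which were not searched, include the abundant Hspa8, Hspa9, Hsp90aa1 and Hsp90ab1, and also Cryab and Hsf1. The 2-unit motif was in 22 of these 71 genes (31%), against 4587 of all 27025 genes of the promoter table (17%). Among genes measured here it was in 19 of 59 members with a window (32.2%), against 1389 of all 9870 with a window (14.1%). The 3-unit motif was in 4 of the 71 (5.63%), against 0.662% of all genes of the table. Hspd1 and Hspe1, which share a site, and Hspa1a and Hspa1b, whose windows are nearly equal, were each counted as separate genes. A match is a run of letters and not a site shown to be bound. Among measured members with a window, the median log2 fold change of TPA against control was 0.41 for the 4 with the 3-unit motif, 0.21 for the 15 with the 2-unit motif alone and -0.06 for the 40 with neither. The ranges overlapped widely, being 0.22 to 0.79, -0.89 to 4.31 and -1.07 to 3.21. Of the 9 gene symbols higher in TPA than in control that had a window, 4 held the 2-unit and 0 the 3-unit motif. Of the 50 measured and not higher, 15 held the 2-unit and 4 the 3-unit motif. In CDDO+TPA against TPA these medians were -0.21, -0.17 and 0.07, and in CDDO+TPA against control 0.17, 0.18 and 0.01. The comparisons share libraries, so these medians are not separate evidence. Hspa4l, which had no match in its window, had a log2 fold change of 2.54 in TPA against control, and Dnajc10, which had one, had -0.89.

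Before the single genes, the counts over the measured members set the scale. A gene counted as higher or lower under 2 conditions: a log2 fold change, with a prior count of 2, of 1 or more in either direction, and a fold whose 95% counting interval did not hold 1. This is called the size rule. In TPA against control, 8 of the 74 measured members were higher (10.8%), against a background of 9.57% of all 13099 genes measured, and 1 was lower (1.35%), against 5.91%. Those higher were Hspa1a and Hspa1b summed, Hspa1l, Hspa4l, Dnajb1, Hspb1, Hspa12a, Dnajc6 and Hsf5, and Dnajc24 was lower. In CDDO+TPA against TPA, 1 was higher (1.35%), against a background of 7.87%, and 4 were lower (5.41%), against 7.78%. The gene higher was Dnajc10, and those lower were Hspa1l, Hspb1, Hspa12a and Dnajc6. In CDDO+TPA against control, 5 were higher (6.76%), against 8.02%, and 1 was lower (1.35%), against 3.37%. Those higher were Hspa1a and Hspa1b summed, Hspa1l, Hspa4l, Cryab and Hsf5, and Dnaja4 was lower. Each library enters 2 of the 3 comparisons, so the counts are not independent of each other. The shares of members higher were thus near or below the background in each comparison. The median log2 fold changes of the measured members were 0.09, -0.03 and 0.08 in these comparisons, against 0.00, 0.01 and -0.02 for all genes measured. Together the 89 genes took 1.06% of the reads of the CDDO+TPA library, 1.14% of the TPA library and 0.898% of the control library. Without Hspa1a and Hspa1b those shares were 1.02%, 1.08% and 0.895%.

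**Figure D1:**
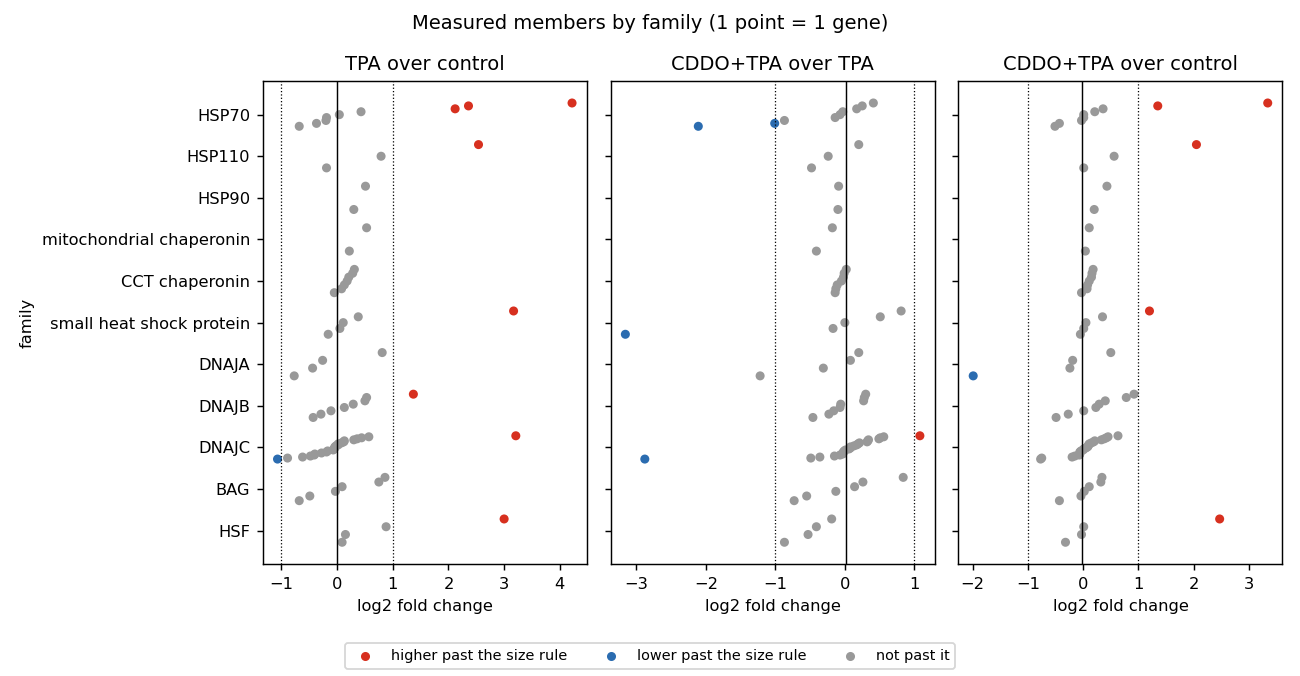
Log2 fold change (horizontal axis) of each measured member, by family, in the 3 comparisons. Each point is 1 gene, the solid line is the median of all genes measured and the dotted lines are log2 fold changes of -1 and 1. In TPA over control most points lie between the dotted lines, and 8 lie past the right one as higher.

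The inducible HSP70 genes showed the largest difference among members with ample reads. Hspa1a and Hspa1b, which encode the same stress-inducible cytosolic HSP70, had 367 CPM summed in the CDDO+TPA library, 672 CPM in the TPA library and 35.9 CPM in the control. The TPA library was the highest and the control by far the lowest. The sum was 18.7-fold higher in TPA than in control (95% interval 16.6 to 21.1) and 10.2-fold higher in CDDO+TPA than in control (9.05 to 11.6). The ratio of CDDO+TPA to TPA was 0.546 (0.522 to 0.572), a log2 fold change of -0.87 that did not pass the rule. Kept apart, Hspa1b had 1635, 3012 and 151 reads in the CDDO+TPA, TPA and control libraries and Hspa1a had 1264, 2344 and 137. Of the stretches of 50 bases in the Hspa1b transcript, 62.3% also occur in that of Hspa1a, so that the split between the copies is uncertain.

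Hspa1l, a relative of these genes best known from the testis, starts 547 bases from Hspa1a on the opposite strand of chromosome 17. It had 21.7 CPM in the CDDO+TPA library, 43.9 CPM in the TPA library and 8.36 CPM in the control, so that the TPA library was again highest. It was 5.26-fold higher in TPA than in control (4.04 to 6.93) and 2.59-fold higher in CDDO+TPA than in control (1.94 to 3.49). In CDDO+TPA against TPA it was lower, with a ratio of 0.493 (0.408 to 0.594) and a log2 fold change of -1.01. Of the stretches of 50 bases in its transcript, 9.57% occur in Hspa1a or Hspa1b and 71.4% in Gm10501, a gene that the count table does not list. How many of its reads came from those genes was not tested.

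Hspa8, the constitutive cytosolic HSP70, differed much less. It had 396 CPM in the CDDO+TPA library, 417 CPM in the TPA library and 309 CPM in the control, and the ratio of TPA to control was 1.35 (1.28 to 1.42). Hspa9, Hspa14, Hspa2, Hspa13 and Hspa12b did not pass the rule in any comparison. Hspa9, the mitochondrial HSP70, had 478, 489 and 476 CPM in the CDDO+TPA, TPA and control libraries, and Hspa14, a ribosome-associated HSP70, had 78.2, 69.7 and 79.7 CPM. Hspa2, known for its role in male germ cells, had 5.58, 4.65 and 7.61 CPM. Hspa12a, a distant member of the class, was past the rule on few reads, with 1 in the CDDO+TPA library, 11 in the TPA library and 1 in the control. Its ratio of TPA to control was 11.1, with a counting interval of 1.61 to 476.

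Per length of transcript, the inducible form was above the constitutive one in the TPA library and below it in the CDDO+TPA and control libraries. In RPKM, the CPM divided by the exonic length in kilobases, Hspa1a and Hspa1b summed stood at 131 in the CDDO+TPA library, 240 in the TPA library and 12.8 in the control, and Hspa8 at 188, 198 and 147. The ratio of the inducible genes to Hspa8 within a library was therefore 0.696 (0.661 to 0.732) in CDDO+TPA, 1.21 (1.16 to 1.26) in TPA and 0.0871 (0.0769 to 0.0985) in control. Hspa1a and Hspa1b made up 39.7%, 52.4% and 7.71% of the RPKM summed over Hspa8, Hspa2, Hspa1l and themselves in those libraries. Duplicate reads had been removed, which caps reads per position, and the pair spreads over 2 loci while Hspa8 has 1. In the TPA library Hspa1a held 0.838 and Hspa1b 1.07 reads per exonic base against 1.58 for Hspa8, and the effect of the removal on this ratio was not tested. Of the 50-base stretches of Hspa8, 39.4% occur in other genes, and 34.6% in Gm15459, a gene without counts here. How reads shared with such copies changed the ratio was not tested either. Summed over these genes, the level was 330 RPKM in the CDDO+TPA library, 458 RPKM in the TPA library and 166 RPKM in the control.

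**Figure D2:**
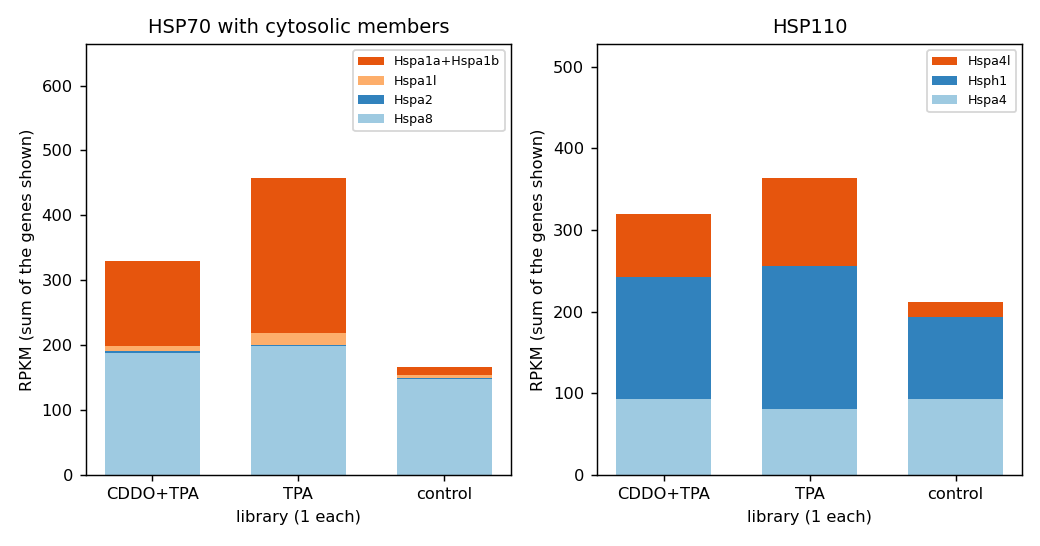
RPKM (vertical axis) of cytosolic HSP70 genes (left) and HSP110 genes (right) stacked for the CDDO+TPA, TPA and control libraries, 1 library each and with no error bars. The Hspa1a+Hspa1b segment is the tallest of the HSP70 stack in the TPA library at 240 RPKM and is 12.8 RPKM in the control, and the Hspa4l segment is 108 RPKM in the TPA library and 18.6 RPKM in the control.

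The HSP110 genes, whose products serve as nucleotide exchange factors of HSP70, differed among themselves in order. Hspa4l, the stress-responsive APG-1 form, had 275 CPM in the CDDO+TPA library, 385 CPM in the TPA library and 66 CPM in the control. It was 5.83-fold higher in TPA than in control (5.31 to 6.4) and 4.16-fold higher in CDDO+TPA than in control (3.79 to 4.59), and the ratio of CDDO+TPA to TPA was 0.715 (0.676 to 0.755). Hspa4, its constitutive relative, had 432 CPM in the CDDO+TPA library, 376 CPM in the TPA library and 430 CPM in the control, and none of its differences passed the rule. Per length, the ratio of Hspa4l to Hspa4 was 0.83 (0.786 to 0.876) in CDDO+TPA, 1.33 (1.27 to 1.4) in TPA and 0.2 (0.182 to 0.219) in control. Hsph1, the third member, which is also inducible by heat, had 517, 609 and 352 CPM in the CDDO+TPA, TPA and control libraries. Its ratio of TPA to control was 1.73 (1.65 to 1.81), below the rule. Almost none of the 50-base stretches of Hspa4l occur in other genes (0.356%), and none of those of Hspa4 and Hsph1 do.

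Among the J-domain co-chaperones that stimulate HSP70, Dnajb1, the main partner of the inducible form, had 165 CPM in the CDDO+TPA library, 227 CPM in the TPA library and 87.2 CPM in the control. It was 2.6-fold higher in TPA than in control (2.38 to 2.84). The ratio of CDDO+TPA to control was 1.89 (1.72 to 2.08), just below the rule, and that of CDDO+TPA to TPA was 0.728 (0.677 to 0.782). Dnaja1, a farnesylated partner of Hspa8, had 177, 220 and 125 CPM in the CDDO+TPA, TPA and control libraries, with a ratio of TPA to control of 1.76 (1.62 to 1.9). Smu1, on the other strand, overlaps 26% of the exonic length of Dnaja1. Dnajb4 and Dnajb6, the second of which keeps aggregation-prone proteins soluble, had log2 fold changes of 0.13 and 0.29 in TPA against control.

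The DNAJC genes, whose products direct HSP70 to particular tasks, went their own ways. Dnajc10, a disulphide reductase of the endoplasmic reticulum, had 184 CPM in the CDDO+TPA library, 86.9 CPM in the TPA library and 161 CPM in the control, so that the TPA library was the low one. It was 2.12-fold higher in CDDO+TPA than in TPA (1.94 to 2.32), and the ratio of TPA to control was 0.538 (0.49 to 0.59), just short of the rule. Dnajc24, which takes part in the synthesis of diphthamide, had 12.9 CPM in the CDDO+TPA library, 10.3 CPM in the TPA library and 21.8 CPM in the control, and was lower in TPA than in control with a ratio of 0.471 (0.358 to 0.616). Dnajc6, the neuronal auxilin of clathrin uncoating, had 3 reads in the CDDO+TPA library, 35 in the TPA library and 2 in the control. It was 17.6-fold higher in TPA than in control (4.52 to 151) and lower in CDDO+TPA than in TPA. Across the 24 measured of 27 DNAJC genes, the median log2 fold change was -0.04 in TPA against control, 0.08 in CDDO+TPA against TPA and 0.06 in CDDO+TPA against control. For the 8 measured of 12 DNAJB genes these medians were 0.21, -0.06 and 0.26, and for the 4 DNAJA genes -0.35, -0.12 and -0.21. Dnaja4 was lower in CDDO+TPA than in control on 1 and 10 reads, with 5 in the TPA library, and 42.7% of its 50-base stretches also occur in Wdr61.

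The symbol rule also brought in J-domain and HSP70 genes of other compartments. Of the 9 members known from the endoplasmic reticulum, Dnajc10 among them, 0 were higher and 0 lower in TPA against control, and 1, Dnajc10, was higher in CDDO+TPA against TPA. Their log2 fold changes in TPA against control ran between -0.89 and 0.50. Of 9 mitochondrial members 0 were past the rule in any of the 3 comparisons, the lowest log2 fold change being -0.48 and the highest 0.53. Of all genes measured, 15.5%, 15.7% and 11.4% were past the rule in either direction in TPA against control, CDDO+TPA against TPA and CDDO+TPA against control, so that counts of 0 or 1 among 9 genes are near the background and set neither group apart. The set is broader than the cytosol.

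The HSP90 genes were among the most abundant of the set, and neither passed the rule. Of all genes, 15.5% were past it in either direction in TPA against control, 15.7% in CDDO+TPA against TPA and 11.4% in CDDO+TPA against control. For so few genes, neither being past the rule is near that background and does not set the HSP90 genes apart. With duplicates removed, the TPA library had 1.49 reads per base of exon for Hsp90aa1 and 1.81 for Hsp90ab1, and whether that narrowed their ratios was not tested. Hsp90aa1, the inducible isoform, had 502 CPM in the CDDO+TPA library, 532 CPM in the TPA library and 373 CPM in the control, with a ratio of TPA to control of 1.43 (1.36 to 1.5). Hsp90ab1, the constitutive isoform, had 531, 569 and 462 CPM in the same order of libraries, with a ratio of TPA to control of 1.23 (1.18 to 1.28). Per length, the ratio of Hsp90aa1 to Hsp90ab1 was 0.83 (0.795 to 0.867) in CDDO+TPA, 0.823 (0.789 to 0.859) in TPA and 0.709 (0.676 to 0.745) in control. Of the 50-base stretches of Hsp90aa1, 47.5% occur in other genes, most of them in Gm12346, and how its reads were shared with such copies was not tested.

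Of the chaperonins, also abundant and under the same limit of duplicate removal, none passed the rule. The background was 15.5% of all genes in TPA against control, 15.7% in CDDO+TPA against TPA and 11.4% in CDDO+TPA against control. For so few genes, none past the rule is near that background. The 7 measured Cct genes, which encode subunits of the ring that folds actin and tubulin, had log2 fold changes between -0.05 and 0.31 in TPA against control, between -0.14 and 0.02 in CDDO+TPA against TPA and between -0.03 and 0.18 in CDDO+TPA against control. Cct2 was the member with the highest of these in TPA against control, at 152 RPKM in the CDDO+TPA library, 166 RPKM in the TPA library and 134 RPKM in the control. Cct6b and Cct8l1, relatives of the ring subunits, had at most 3 reads in a library. Hspd1, the mitochondrial HSP60, had 308, 348 and 300 CPM in the CDDO+TPA, TPA and control libraries, and its co-chaperonin Hspe1 had 59.3, 79 and 54.8 CPM. The ratio of TPA to control was 1.16 (1.1 to 1.23) for Hspd1 and 1.44 (1.27 to 1.63) for Hspe1, whose starts flank the shared 3-unit site shown above.

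The small heat shock proteins differed from each other in which library was highest. Cryab, the alpha-B crystallin, had 86.2 CPM in the CDDO+TPA library, 49 CPM in the TPA library and 37.4 CPM in the control, so that here the CDDO+TPA library was the highest. It was 2.3-fold higher in CDDO+TPA than in control (2.01 to 2.65), while the ratio of CDDO+TPA to TPA was 1.76 (1.55 to 2) and that of TPA to control 1.31 (1.12 to 1.53), both below the rule. Hspb2, which starts near Cryab on the other strand and whose exons overlap 20.6% of the exonic length of Cryab, had 4 reads in the CDDO+TPA library, 1 in the TPA library and 0 in the control. Without strand, reads in the overlap cannot be assigned to one of the 2 genes.

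Hspb1, which encodes HSP25, had 1 read in the CDDO+TPA library, 25 in the TPA library and 1 in the control. It was higher in TPA than in control and lower in CDDO+TPA than in TPA, on few reads. The ratio of TPA to control was 25.1 (4.12 to 1033) and that of CDDO+TPA to TPA 0.0404 (0.000983 to 0.247). Its level of 3.48 RPKM in the TPA library was far under the 121 RPKM of Hspb8, a partner of Bag3 in autophagy, in the same library. Of the 50-base stretches of Hspb1, 48.8% occur in Hsp25-ps1, a copy absent from the count table. Hspb8 had 196, 220 and 203 CPM and Hspb6, a muscle-enriched member, had 39.5, 39.4 and 38.2 CPM in the CDDO+TPA, TPA and control libraries. Per length, the ratio of Cryab to Hspb8 was 0.653 (0.596 to 0.715) in CDDO+TPA, 0.33 (0.295 to 0.369) in TPA and 0.273 (0.241 to 0.309) in control.

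None of the 6 BAG genes, several of whose products release nucleotide and client from HSP70, passed the rule in any comparison. In either direction, 15.5%, 15.7% and 11.4% of all genes were past it in TPA against control, CDDO+TPA against TPA and CDDO+TPA against control. For 6 genes, a count of 0 is near that background and does not set the family apart. Bag3, the stress-inducible member that links HSP70 to autophagy, had 169 CPM in the CDDO+TPA library, 247 CPM in the TPA library and 135 CPM in the control. Its ratio of TPA to control was 1.82 (1.69 to 1.96) and that of CDDO+TPA to TPA 0.684 (0.638 to 0.734). Bag2, an inhibitor of the ubiquitin ligase CHIP, was lowest in the TPA library, with 56.6 CPM in the CDDO+TPA library, 31.6 CPM in the TPA library and 44.6 CPM in the control. Bag4, a silencer of death receptors, had 60.9 CPM in the CDDO+TPA library, 101 CPM in the TPA library and 60.2 CPM in the control. Bag5, with several BAG domains, had 75.6, 63.3 and 102 CPM in the same libraries. Bag1, which couples HSP70 to the proteasome, had 124, 112 and 115 CPM in that order of libraries, and Bag6 had 324, 354 and 333 CPM.

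Among the heat shock factor genes, Hsf1 and Hsf2, which had many reads, did not pass the rule in any comparison. Hsf1 had 145 CPM in the CDDO+TPA library, 165 CPM in the TPA library and 148 CPM in the control, and Hsf2, a factor of development that also joins HSF1, had 92.8, 124 and 116 CPM. The counting interval of the ratio of TPA to control was 1.03 to 1.2 for Hsf1 and 0.972 to 1.17 for Hsf2. Hsf4, the lens factor, had 4, 9 and 4 reads in the CDDO+TPA, TPA and control libraries. Hsf5, known from the testis, had 9 reads in the CDDO+TPA library, 14 in the TPA library and 0 in the control, and was at least 4.69-fold higher in TPA and at least 3.05-fold higher in CDDO+TPA against a floor of 3 reads in the control library. The exact counting intervals of these ratios, which also allow for error in the 14 and 9 reads, began lower, at 3.34 for TPA and 2 for CDDO+TPA.

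**Figure D3:**
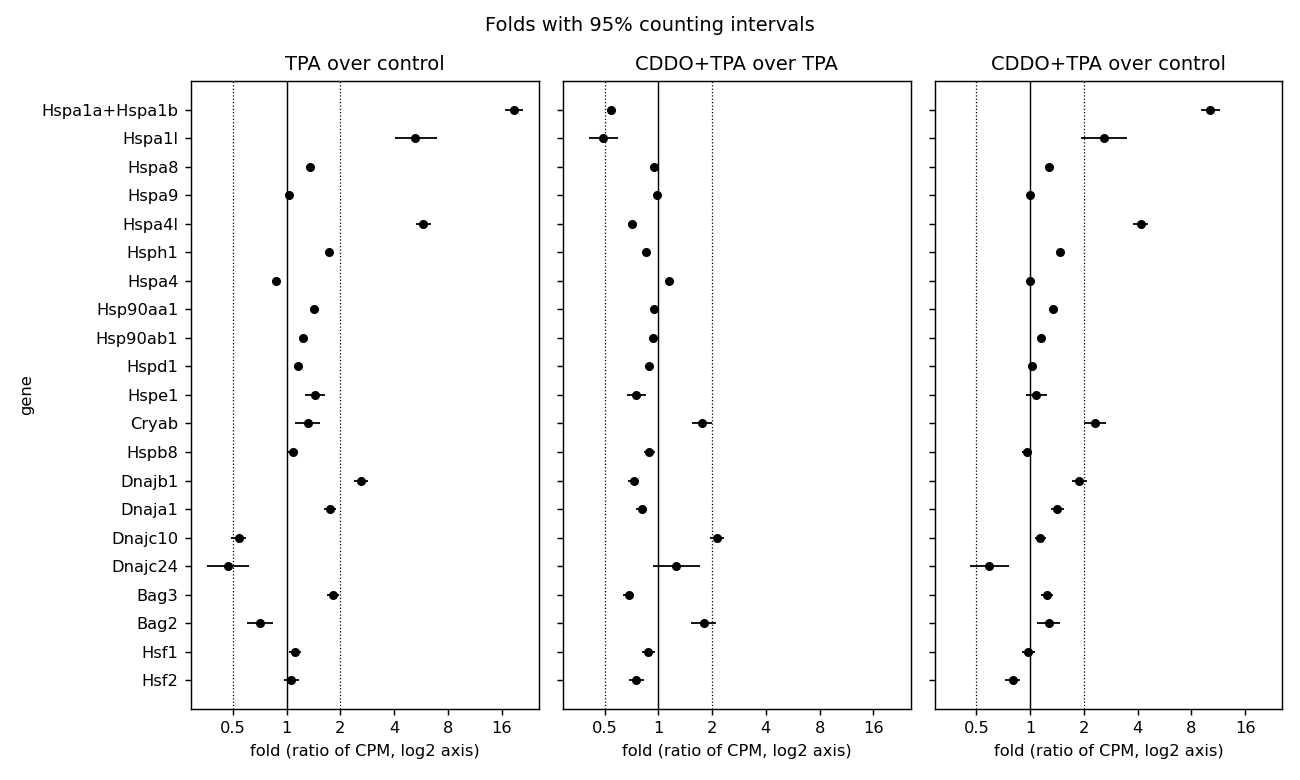
Fold of 21 members (ratio of CPM, log2 axis) in the 3 comparisons, with 95% counting intervals as bars and 2-fold differences as dotted lines. In TPA over control Hspa1a+Hspa1b lies at 18.7, Hspa4l at 5.83 and Hspa1l at 5.26, while most others lie between the dotted lines.

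By level, Hsp90ab1 led the set in the CDDO+TPA library at 212 RPKM (206 to 218) and in the control at 184 RPKM (179 to 191). In the TPA library Hspa1a and Hspa1b summed came first at 240 RPKM (233 to 246), followed by Hsp90ab1 at 227 RPKM (220 to 234), whose interval met theirs. Intervals that meet do not show that the levels are equal, and an interval for the ratio of this pair was not computed. Summed, Hspa1a and Hspa1b ranked 10 of 89 in the CDDO+TPA library, 1 in the TPA library and 55 in the control. Kept apart in the TPA library, Hspa1b had 135 RPKM (130 to 139) and Hspa1a 105 RPKM (101 to 110), both below Hsp90ab1. The remaining places among the 12 highest mean levels were taken by Hspa8, Hsp90aa1, Hspa9, Cct2, Hsph1, Hspd1, Cct4, Cct5, Hspb8 and Cct6a. In the TPA library the intervals of Hspa9 at 161 RPKM (156 to 166) and Cct2 at 166 RPKM (159 to 172) overlapped. So did those of Hspd1 at 149 RPKM (144 to 155) and Cct4 at 146 RPKM (140 to 152). At the other end 15 members were not measured, none with more than 4 reads in a library. They were Cct6b, Cct8l1, Dnajb3, Dnajb7, Dnajb8, Dnajb13, Dnajc5b, Dnajc5g, Dnajc12, Hsf2bp, Hsf3, Hspb2, Hspb3, Hspb7 and Hspb9.

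**Figure D4:**
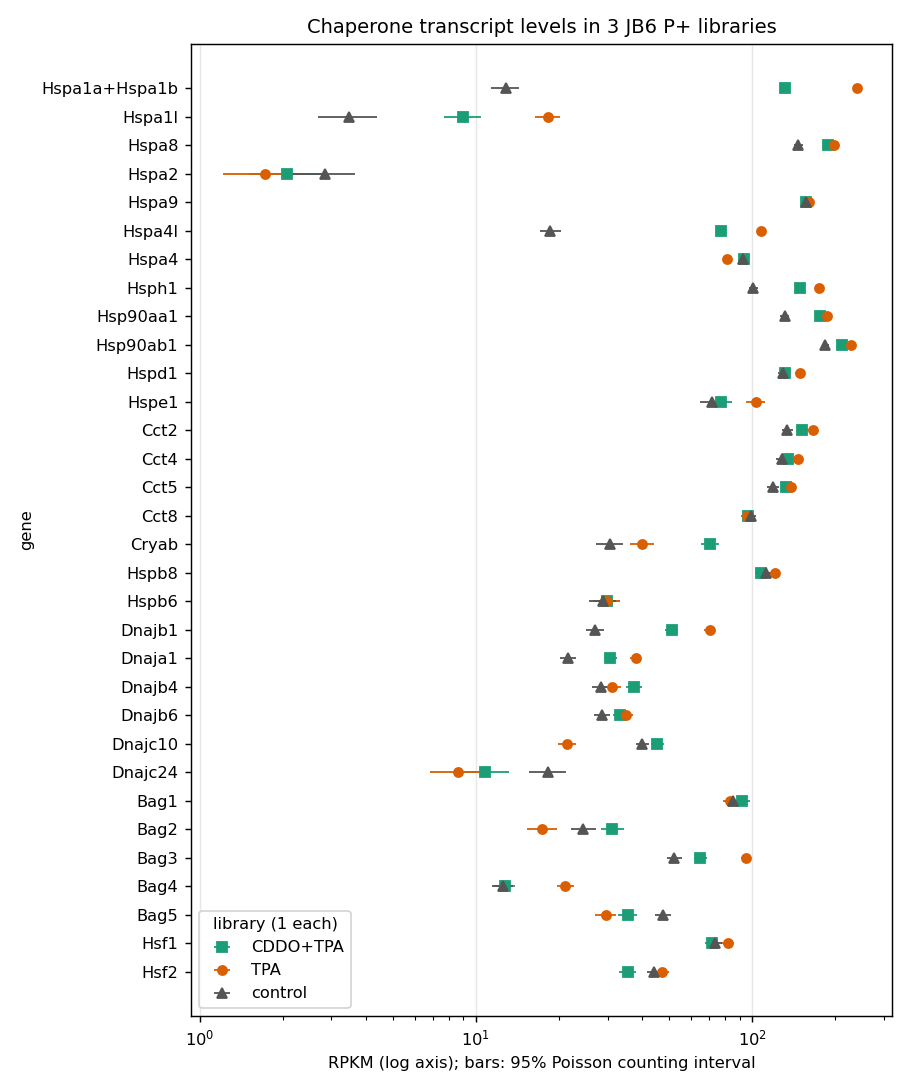
Level of 32 members in RPKM (log axis) in the CDDO+TPA (squares), TPA (circles) and control (triangles) libraries, 1 library each, with 95% Poisson counting intervals. For Hspa1a+Hspa1b the markers lie at 131, 240 and 12.8 RPKM, and for Hspa9 they nearly coincide at 157, 161 and 156 RPKM.

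Genes of the same pathway outside the symbol rule were described from lists, whose counts are to be read against the 15.5%, 15.7% and 11.4% of all genes past the rule in either direction in these comparisons. Of 13 known HSF1 targets, 3 were higher in TPA against control (23.1%, against the background of 9.57%) and 0 were lower. Their median log2 fold change was 0.44 against 0.00 for all genes. The list was chosen with earlier results of these data known, so these values are a description and not independent support. The 3 calls lay close to the rule, with log2 fold changes of 1.04 for Zfand2a, 1.06 for Slc5a3 and 1.10 for Dedd2. Zfand2a, a proteasome-associated zinc finger gene induced by arsenite, had 280 CPM in the CDDO+TPA library, 352 CPM in the TPA library and 171 CPM in the control, and was 2.06-fold higher in TPA than in control (1.93 to 2.2). Slc5a3, the myo-inositol transporter, was 2.09-fold higher (1.94 to 2.24) and Dedd2, a death effector domain gene, was 2.15-fold higher (1.77 to 2.64). In CDDO+TPA against TPA and in CDDO+TPA against control 0 of the 13 were past the rule, with medians of -0.28 and 0.26.

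None of 19 cofactors of HSP90 and HSP70 was past the rule in any of the 3 comparisons, and their medians were 0.15 in TPA against control, -0.08 in CDDO+TPA against TPA and 0.18 in CDDO+TPA against control. Ahsa1, the activator of the HSP90 ATPase, had 132 CPM in the CDDO+TPA library, 160 CPM in the TPA library and 95.7 CPM in the control, the highest log2 fold change of the list in TPA against control at 0.74. Trap1, the mitochondrial HSP90, had the highest in CDDO+TPA against TPA, at 0.67, with 155, 97.5 and 126 CPM in the CDDO+TPA, TPA and control libraries. Ahsa1, Chordc1, Stip1, Fkbp4 and Cacybp stand on both lists. Prefoldin subunits, which hand actin and tubulin to the Cct ring, Pdcl3, a phosducin-like cofactor of that ring, and Tcp1, the remaining Cct subunit, together had medians of 0.14, -0.10 and -0.04 in the 3 comparisons, with 0 of 8 past the rule.

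Chaperones of the endoplasmic reticulum, which serve a separate stress response, gave a median of -0.03 in TPA against control, -0.03 in CDDO+TPA against TPA and -0.07 in CDDO+TPA against control, with 0 of 14 past the rule in each. Hspa5, the HSP70 of that compartment, had 361 CPM in the CDDO+TPA library, 393 CPM in the TPA library and 464 CPM in the control. Immediate early genes, which respond within minutes to serum, phorbol ester or handling, had medians of -0.21, -0.16 and -0.46 in the same order of comparisons. Of these 17 genes 0 were past the rule in TPA against control. Egr3, a zinc finger factor, was higher in CDDO+TPA against both other libraries on low counts, and Atf3, a stress-inducible repressor, was lower in CDDO+TPA than in control, with 64.7 and 158 CPM.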

How the data were processed

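RNA sequencing of 3 libraries of JB6 P+ cells, 1 per group, was analysed. The deposited values are whole-number read counts per gene, not normalized. Per the file headers, the authors ran featureCounts 1.5.3 with its option for primary alignments on UCSC genes of mm10. The command sets no strand or pair option and no separate option for multi-mapping reads, and it lists 7 alignment files. Multi-mapping reads may still have been counted at their primary alignment, which was not checked. The column names carry a mark of duplicate removal. HISAT2, Picard and DESeq are named without a version in the submitters' processing notes. The rule for duplicates is not stated in those notes. Removal by position caps the reads of abundant genes and can narrow their folds or lower their levels. In the TPA library Hsp90ab1 held 1.81, Hspa8 1.58 and Hspb1 0.0277 reads per exonic base, and Hspa1b held 1.07. Whether this changed a fold or a rank of levels was not tested.

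TMM scaling (edgeR 4.0.16, R 4.3.3) gave factors of 1, 1.02 and 0.978 for CDDO+TPA, TPA and control. Log2 fold changes are differences of log2 CPM with a prior count of 2 and understate changes of genes with few reads. Folds are ratios of CPM with exact conditional binomial 95% intervals (SciPy 1.17.1), and levels have exact Poisson intervals. RPKM used the deposited exonic length. A gene was measured if any library reached 1 CPM. Groups of 1 library allowed no p-value. The members and gene lists were chosen with earlier results of these data known. Text names, by rule, members past the size rule, the 12 of highest mean RPKM and a fixed list of main chaperones, and further genes beside them were chosen after their values were seen. The 50-base comparison used GENCODE M21 transcripts, and promoters came from RefSeq. The calls and intervals were tried on simulated counts with Poisson error alone, which is the error that the intervals assume. That trial says nothing on the spread between cultures. Alternatives were 3 other scalings, prior counts of 0.5 and 5, other filters and folds, and Hspa1a and Hspa1b kept apart.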

Additional observations from a re-analysis of the deposited data

How the results depend on the processing

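No paired analysis was possible because each group had 1 library, and for the same reason no library could be left out. Scaling by total counts, upper quartiles or DESeq2 size factors (DESeq2 1.42.0), and prior counts of 0.5 or 5, left the counts of members past the rule within 1.5 times, and no called log2 fold change of a named member changed sign. Over these 5 settings, of the log2 fold changes of named members, past the rule or not, 584 stayed on their side of it and 1 did not, that of Hspa1l in CDDO+TPA against TPA, which fell just short with a prior count of 5. Among members averaging 10 CPM or more, 4 of 63 were higher in TPA against control (6.35%, with 3.84% of 9889 genes as background). In that comparison 1 was lower (1.59%, background 4.81%). Under the same filter, 1 was higher (1.59%, background 5.28%) and 1 lower (1.59%, background 2.3%) in CDDO+TPA against TPA. When CDDO+TPA was set against control, 4 were higher (6.35%, background 5.12%) and 0 lower (background 1.67%). The 4 calls in TPA against control that the filter removed were Hspb1, Hspa12a, Dnajc6 and Hsf5, all on few reads. With a 1.5-fold rule, 12 members were higher (16.2%, background 15.5%) and 5 lower (6.76%, background 13.7%) in TPA than in control. By that rule 3 were higher (4.05%, background 15.3%) and 6 lower (8.11%, background 12.8%) in CDDO+TPA than in TPA, and 8 higher (10.8%, background 13.4%) and 3 lower (4.05%, background 8.7%) in CDDO+TPA than in control. With a 3-fold rule the higher and lower counts were 7 and 0 for TPA over control (background 5.97% and 2.11%), 0 and 3 for CDDO+TPA over TPA (3.72% and 4.99%) and 3 and 1 for CDDO+TPA over control (4% and 1.57%). The median log2 fold change of the members lay between 0.09 and 0.15 for TPA over control, -0.06 and -0.02 for CDDO+TPA over TPA, and 0.06 and 0.12 for CDDO+TPA over control. A count of 0 allows up to 0.38, 0.377 and 0.374 CPM (3 reads) in the CDDO+TPA, TPA and control libraries.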
